A study of Homo sapiens with 24 samples.

Results

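DOC2GP, VAMP8, CBLN3, MGAT4B, AKR1C1, RIPK2, SLC25A24 and ARHGAP9 are 8 of the 25559 genes counted by RNA-seq in 24 libraries from 3 T-cell lines, and all 8 were among the 16809 genes that passed a filter on low counts. They were listed because their response to decitabine differed between the lines, and they hold ranks 1 to 8 in the test of that difference across all genes tested. The decitabine effects that chose them are therefore given below as a description and without a test. Only slopes over the treated doses are tested with decitabine, with that limit stated there. The lines are PF382, from T-cell acute lymphoblastic leukemia, HH, from cutaneous T-cell lymphoma, and TLOm1, from adult T-cell leukemia. They were grown for 96 h with drug added every 24 h, or left untreated. One set of 12 libraries holds decitabine at 5, 12.5 and 25 nM in every line, with 1 untreated library of each line. A separate set of 12 holds azacitidine (AZA), at 50, 125 and 250 nM in HH and, in PF382 and in TLOm1, at 125, 250 and 500 nM, again with 1 untreated library of each line. Each condition has 1 library, the doses are not replicates of each other, and the labels name no separate cultures. With 1 untreated library for each line and set, p values measure the spread between treated libraries of different doses only. They hold no spread between untreated cultures, except where both untreated libraries of a line are in the fit.

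Decitabine and AZA are cytidine analogs. Built into DNA, they trap the DNA methyltransferases, and methyl groups on CG dinucleotides are then lost as cells divide. Decitabine enters DNA alone, whereas AZA enters RNA as well. Genes that a cell keeps silent through methylated CG sites at the promoter can become transcribed after such treatment, and both drugs are used against blood cancers. DNA methylation was not measured in these libraries.

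DOC2GP is a pseudogene of the DOC2 family, whose proteins are calcium sensors of vesicle release. VAMP8 is a SNARE protein that fuses late endosomes, lysosomes and secretory granules with their target membranes. CBLN3 belongs to the cerebellins, secreted proteins known mainly from the mouse cerebellum, and MGAT4B is a Golgi enzyme that adds a branch to N-glycans. AKR1C1 reduces steroids, among them progesterone, and SLC25A24 carries ATP-Mg and phosphate across the inner mitochondrial membrane under the control of calcium. RIPK2 is the kinase through which the receptors NOD1 and NOD2 activate NF-kappaB.

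The promoters of these genes are shown because both drugs act on CG dinucleotides. RefSeq promoter sequences of 300 bases around the transcription start (build GRCh38.p14) were read for 5 of the 8 genes. DOC2GP, RIPK2 and ARHGAP9 are named only. CG, searched as those letters, which read the same on either strand, is printed in capitals. At least 1 CG stands in 96.0% of the 35116 promoters of the table, and the median promoter has 14. The sequences of 4 genes whose PF382 ratios below exceed that of MGAT4B follow, 5′ to 3′ on the strand of the gene.
VAMP8, chr2:85577336-85577635, plus strand: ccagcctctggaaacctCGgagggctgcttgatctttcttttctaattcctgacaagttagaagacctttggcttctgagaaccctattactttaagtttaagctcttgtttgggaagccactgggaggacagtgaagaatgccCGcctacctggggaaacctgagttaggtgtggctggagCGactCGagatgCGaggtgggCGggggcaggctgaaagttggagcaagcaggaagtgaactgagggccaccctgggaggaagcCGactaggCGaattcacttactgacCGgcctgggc
SLC25A24, start 1, chr1:108200294-108200593, minus strand: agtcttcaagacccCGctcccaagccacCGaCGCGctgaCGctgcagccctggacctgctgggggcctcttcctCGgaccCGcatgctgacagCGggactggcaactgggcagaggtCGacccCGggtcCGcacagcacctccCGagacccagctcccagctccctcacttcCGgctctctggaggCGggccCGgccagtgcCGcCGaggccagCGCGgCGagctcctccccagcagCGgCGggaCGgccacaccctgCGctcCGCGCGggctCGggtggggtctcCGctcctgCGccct
SLC25A24, start 2, chr1:108192786-108193085, minus strand: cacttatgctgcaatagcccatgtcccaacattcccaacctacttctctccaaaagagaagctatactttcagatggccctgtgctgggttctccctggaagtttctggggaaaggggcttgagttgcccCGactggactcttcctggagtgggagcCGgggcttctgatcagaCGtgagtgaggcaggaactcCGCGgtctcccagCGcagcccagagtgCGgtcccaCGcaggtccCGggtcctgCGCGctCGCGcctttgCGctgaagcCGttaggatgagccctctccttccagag
CBLN3, chr14:24429619-24429918, minus strand: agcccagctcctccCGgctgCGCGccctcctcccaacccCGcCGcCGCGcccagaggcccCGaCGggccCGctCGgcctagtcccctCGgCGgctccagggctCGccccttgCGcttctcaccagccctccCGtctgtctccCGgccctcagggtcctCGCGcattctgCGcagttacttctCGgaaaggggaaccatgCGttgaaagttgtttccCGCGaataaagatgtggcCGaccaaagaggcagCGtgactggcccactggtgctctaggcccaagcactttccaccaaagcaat
AKR1C1, chr10:4963165-4963464, plus strand: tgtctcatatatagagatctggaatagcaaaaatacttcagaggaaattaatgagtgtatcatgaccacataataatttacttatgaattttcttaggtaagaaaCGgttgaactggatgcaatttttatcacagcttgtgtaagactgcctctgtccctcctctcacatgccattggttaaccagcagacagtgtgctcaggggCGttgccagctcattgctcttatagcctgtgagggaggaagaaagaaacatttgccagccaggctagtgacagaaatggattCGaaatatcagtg

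The 5 genes did not share a dense or a sparse promoter. AKR1C1 has 3 CG in its 300 bases, a number that 81.8% of all promoters reach. VAMP8 has 9, which 58.4% reach. CBLN3 has 26, which 30.1% reach. SLC25A24 has 30 at one start, which 22.4% of promoters reach, and 15 at the other, which 48.9% reach. MGAT4B, whose sequences are not shown, has 42 CG at one start, a density reached by 5.85% of promoters, and 8 at the other. These counts describe the sequence only and say nothing of its methylation.

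Total counts ranged from 13892514 to 29793985 in the decitabine set and from 16175077 to 32496676 in the AZA set. Values are given as CPM, the count scaled to a common library total. Where no read was counted, up to 3 counts are still possible, which is 0.216 CPM in the shallowest library and covers counting error only. T-cell markers were expressed in every library, with the 8 listed genes summing to between 1653 and 2237 CPM in PF382, 819 and 1040 CPM in HH, and 382 and 439 CPM in TLOm1. Of the markers of other cells, the 3 erythroid genes summed to at most 0.0873 CPM in PF382, whereas the 4 epithelial genes summed to at most 45.9 CPM in treated PF382, against at most 4.93 CPM in untreated PF382, with 1 of the 4 at 0 in every PF382 library. The 4 B-cell genes summed to at most 26.6 CPM in treated PF382, against at most 11.7 CPM untreated, the 5 myeloid genes to at most 3.89 CPM, against 0.912 CPM, and the 3 fibroblast genes to at most 9.14 CPM, against 7.64 CPM. In TLOm1 the epithelial genes summed to at most 104 CPM after drug, against 10.4 CPM untreated, and the fibroblast genes to at most 20.2 CPM, against 0.555 CPM. The part of these cells or genes in the results below was not tested. Fewer cells expressing a gene and less RNA per cell cannot be told apart in such libraries.

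In PF382 the level of 7 of the 8 genes was higher at all 3 decitabine doses than in both untreated libraries of the line, which held for 24.8% of the 13943 genes with a mean of at least 1 CPM. ARHGAP9 did not belong to them. It was the gene with the highest level in untreated PF382, and its decitabine response lay in HH and TLOm1. The label of a PF382-specific response thus fits 7 of the 8 genes by size, but not always by direction. SLC25A24 in HH was also above both untreated libraries at all 3 decitabine doses, at 1.12 times its own untreated library. The pooled ratio was 1.39 for VAMP8 in TLOm1 and 1.23 for DOC2GP in HH. Against the untreated library of the other set these 2 ratios were 0.964 and 0.625. In untreated cells those 7 were low in PF382, below all 4 untreated libraries of HH and TLOm1, and ARHGAP9 was above all 4. The share of all genes with such an order was not counted, so nothing is read from it. In addition, the untreated PF382 library of the decitabine set took part in the choice. In the AZA set, 76.2% of all genes differed in level between PF382 and the other lines.

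**Figure D1:**
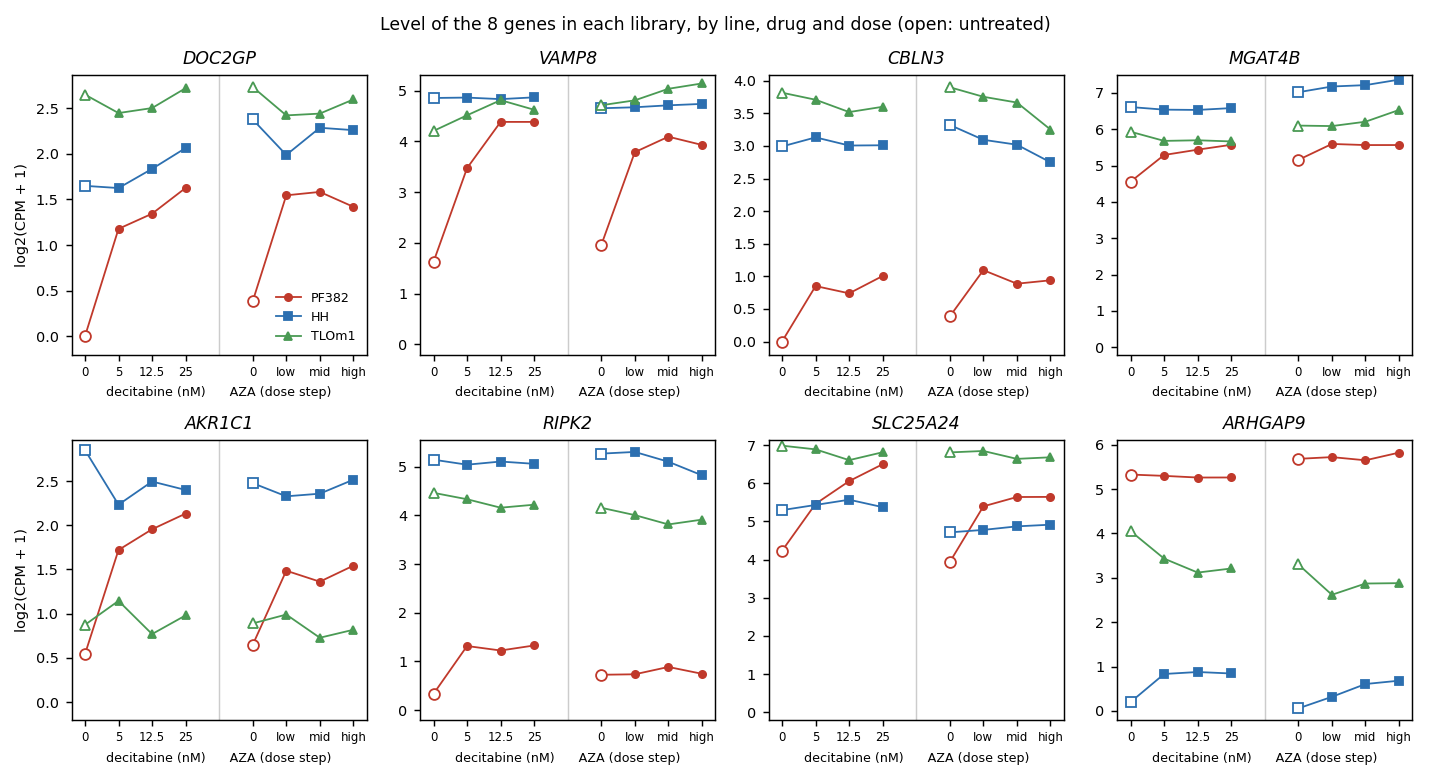
Level of each gene as log2(CPM + 1) in all 24 libraries, by dose of decitabine (left of the grey line) and of AZA (right), with 1 library a point and open symbols for the untreated libraries. Low, mid and high AZA are 50, 125 and 250 nM in HH and 125, 250 and 500 nM in the other lines. Untreated PF382 (red, open) is lowest in 7 panels and the treated PF382 libraries lie above it, as for VAMP8 at 19.9 CPM with 25 nM decitabine, against 2.08 CPM untreated. PF382 is the highest line for ARHGAP9.

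DOC2GP had no count in the untreated PF382 library of the decitabine set. At 0, 5, 12.5 and 25 nM decitabine it had 0, 1.26, 1.54 and 2.09 CPM in PF382, from 0, 22, 23 and 29 counts. Set against the 3 counts that a count of 0 allows in that library, the pooled treated level was at least 8.18-fold higher. The treated libraries lay at 37.8% of the mean of the 4 untreated HH and TLOm1 libraries. At the same doses HH had 2.14, 2.08, 2.57 and 3.18 CPM. TLOm1 had 5.28, 4.45, 4.67 and 5.59 CPM. Neither line had an untreated library near 0, and in both the treated values overlapped with the untreated ones.

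VAMP8 had the largest ratio of the genes with counts in that untreated PF382 library. Over the decitabine series it had 2.08, 10.1, 19.9 and 19.9 CPM in PF382, and the pooled treated level was 7.76 times the untreated one. In HH it stayed between 27.5 and 28.2 CPM, untreated library included. TLOm1 had 17.4, 21.8, 27.1 and 23.6 CPM. Treated PF382 reached 70.2% of the mean untreated level of HH and TLOm1.

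CBLN3 was, like DOC2GP, without a count in that untreated PF382 library. Decitabine at 5, 12.5 and 25 nM gave 0.803, 0.669 and 1.01 CPM, from 14, 10 and 14 counts, at least 4.20-fold above what a count of 0 allows. The level remained at 7.69% of the untreated HH and TLOm1 mean, so the gene stayed low in PF382. HH had 6.96, 7.77, 7.04 and 7.06 CPM over the series. TLOm1 had 13.1, 12.1, 10.5 and 11.1 CPM, all treated libraries being below both untreated ones. CBLN3 overlaps KHNYN, and since strand-aware counting is not stated, reads of the overlap cannot be assigned with certainty. KHNYN itself did not stand apart in PF382, with a treated mean of 114 ± 9.82 CPM (SD, n = 3 doses), against 102 and 134 CPM in the untreated libraries.

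AKR1C1 was higher at each successive decitabine dose in PF382. It had 0.456, 2.30, 2.88 and 3.38 CPM, from 7, 40, 43 and 47 counts, and the pooled treated level was 6.16 times the untreated one. In HH the values were 6.21, 3.70, 4.64 and 4.28 CPM, lower at each dose than in the untreated library of that set. TLOm1 was low throughout, between 0.705 and 1.21 CPM. AKR1C1 shares much of its sequence with AKR1C2, so counts may be split between the copies, which was not tested. Of their aligned promoter bases, 264 of 296 (89.2%) were equal, which says nothing of reads from the transcripts. AKR1C2 had 0.456, 0.689, 1.20 and 2.23 CPM in PF382 over the same doses, and AKR1C3, a further steroid-reducing family member, had 6.25, 9.07, 14.6 and 18.4 CPM. AKR1C4 had at most 0.216 CPM in PF382.

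RIPK2 was detected at a trace in untreated PF382. It had 0.261, 1.49, 1.34 and 1.51 CPM over the decitabine series, from 4, 26, 20 and 21 counts, a pooled ratio of 5.56. The treated level was 4.0% of that of untreated HH and 7.68% of that of untreated TLOm1. HH lay between 32.0 and 34.4 CPM and TLOm1 between 16.9 and 21.1 CPM in that set. As a measure of reads carried over from other libraries, chosen after the values were seen, 129 genes above 20 CPM in untreated HH and under 0.1 CPM in untreated PF382 were read in all PF382 libraries, where their median level was at most 0.150% and their summed level at most 0.405% of that in HH. The 144 genes of TLOm1 chosen alike had a median of at most 0.184% and a summed level of at most 1.27%. The limit of 0.1 CPM fixed the low untreated level of these genes in advance and passed over genes with more reads there. RIPK2 itself, at 0.261 and 0.655 CPM in the untreated PF382 libraries, would not meet that limit. Whether carried-over reads contribute to RIPK2 was not tested.

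SLC25A24 had the highest counts of the 7 genes in treated PF382. It had 17.8, 43.1, 65.6 and 89.6 CPM at 0, 5, 12.5 and 25 nM decitabine, from 273, 751, 981 and 1245 counts. The pooled treated level was 3.62 times the untreated one and at 12.5 and 25 nM exceeded every HH library. HH had 38.3, 42.2, 46.5 and 40.5 CPM. TLOm1 had 126, 118, 96.5 and 112 CPM.

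MGAT4B had the smallest ratio of the 7 genes. PF382 had 22.5, 38.2, 42.3 and 46.6 CPM over the decitabine series, a pooled ratio of 1.86. HH had 96.7, 92.0, 91.5 and 94.8 CPM, and TLOm1 had 60.0, 50.2, 50.8 and 49.7 CPM. In both lines every treated library was below both untreated ones. The untreated library of the AZA set had 129 CPM in HH and 67.6 CPM in TLOm1. The untreated PF382 library of the AZA set had 34.7 CPM, nearer to the treated libraries. MGAT4B overlaps SQSTM1, whose protein is an autophagy receptor and whose mean was 50.2 ± 3.72 CPM in decitabine-treated PF382 (SD, n = 3 doses), against 37.3 and 48.3 CPM in untreated PF382.

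ARHGAP9 had the opposite order of lines. PF382 had 39.2, 38.3, 37.3 and 37.4 CPM over the decitabine series, and the treated libraries lay close below the untreated library of the set. TLOm1 had 15.6, 9.80, 7.69 and 8.26 CPM, a pooled ratio of 0.550. HH had 0.149, 0.782, 0.838 and 0.795 CPM, from 3, 15, 15 and 16 counts, a ratio of 5.39 with a 95% exact counting interval of 1.73 to 27.1. The lower level in TLOm1 holds against its own untreated library. Against the untreated TLOm1 library of the AZA set, which had 8.86 CPM, the ratio was 0.969. ARHGAP9 overlaps MARS1 (MARS in the files), a methionyl-tRNA synthetase. The pooled decitabine level of MARS was 0.726 times that of the untreated library in TLOm1, 0.727 times in HH and 0.813 times in PF382.

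In the whole table only DOC2GP passed the threshold of 0.05 on the adjusted p in the decitabine difference between lines, 0.00595% of the genes tested, and the other 7 genes were chosen by rank and not by a call. At the border, RIPK2 at rank 8 had fitted decitabine effects of 2.41 in PF382, -0.11 in HH and -0.24 in TLOm1 on the log2 scale. SYT1, a synaptotagmin at rank 9 and outside the list, had 1.40, -0.07 and -0.32.

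Each decitabine response rests on 1 untreated library of the line, and the second untreated library, made with the AZA set, gives a measure of how far such a library can differ. Of the 6 genes with counts in both PF382 libraries, RIPK2 differed most, with 0.261 CPM in the decitabine set and 0.655 CPM in the AZA set, a factor of 2.51. MGAT4B differed by a factor of 1.54, VAMP8 by 1.38, ARHGAP9 by 1.29, and AKR1C1 and SLC25A24 by 1.24 each. DOC2GP and CBLN3 had 7 counts each in the untreated PF382 library of the AZA set, or 0.305 CPM.

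Set against the untreated library of the other set, the decitabine response in PF382 kept its direction for the 7 genes but not its size. The pooled ratio was 5.24 for DOC2GP, 5.62 for VAMP8, 2.69 for CBLN3, 4.95 for AKR1C1 and 4.50 for SLC25A24. For RIPK2 it was 2.21, against 5.56 with its own untreated library. MGAT4B had a ratio of 1.21, against 1.86 with its own.

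**Figure D2:**
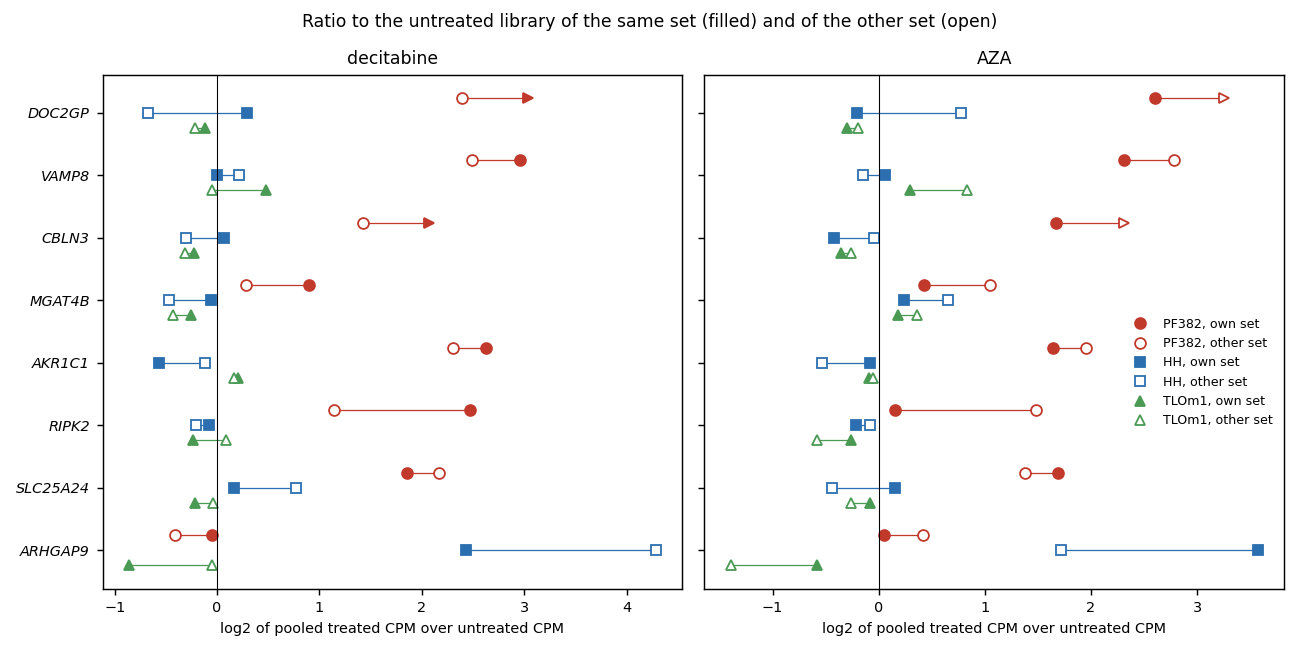
Log2 ratio of the pooled treated CPM to the untreated CPM of the same line, for decitabine (left) and AZA (right), with the untreated library of the same set (filled) or of the other set (open). Triangles pointing right mark lower bounds, computed against 3 counts where the untreated library had none. In PF382 (red) the decitabine ratios of DOC2GP, VAMP8, CBLN3, AKR1C1 and SLC25A24 are 2.69 or more with either library, and that of MGAT4B is 1.21 with the other one.

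The AZA libraries were not part of the decitabine contrast that ranked the genes, and allow a test. They did share the filter and the fit of the spread with that contrast, so the test is not fully independent of the choice. The question was whether AZA, too, raised these genes more in PF382 than in the other lines. With edgeR's quasi-likelihood test on all 16809 genes and Benjamini-Hochberg adjustment, 3 of the 8 passed in that direction, where 17 genes of the whole table (0.101%) did. DOC2GP, VAMP8 and SLC25A24 were the 3. RIPK2 and MGAT4B had the smallest differences, and CBLN3 and AKR1C1 had differences of similar size to SLC25A24 that missed the threshold.

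In PF382, DOC2GP had 0.305, 1.92, 2.0 and 1.68 CPM at 0, 125, 250 and 500 nM AZA. HH had 4.19, 2.97, 3.88 and 3.79 CPM at 0, 50, 125 and 250 nM. TLOm1 had 5.65, 4.36, 4.43 and 5.05 CPM at 0, 125, 250 and 500 nM. All 3 treated PF382 libraries were above, and all 3 treated libraries of HH and TLOm1 below, the untreated library of their line and set. The difference of the AZA effects, PF382 minus the mean of HH and TLOm1, was 2.81 ± 0.45 (SE) on the log2 scale (edgeR adjusted p = 0.0157). The adjusted p became 0.0634 with the AZA libraries alone and 0.0529 with limma voom.

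VAMP8 had 2.88, 12.8, 16.0 and 14.2 CPM in PF382 over the AZA series. The treated libraries of HH and TLOm1 were also above their untreated ones, but by little in HH, which had 24.1, 24.5, 25.2 and 25.7 CPM. In TLOm1 VAMP8 had 25.2, 27.0, 31.8 and 34.3 CPM. The difference between PF382 and the other lines was 2.09 ± 0.35 (SE) on the log2 scale (edgeR adjusted p = 0.0180). It was 0.0764 with limma voom and 0.0514 without the PF382 library at 250 nM.

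SLC25A24 had 14.3, 41.1, 48.9 and 49.0 CPM in PF382, 25.3, 26.5, 28.3 and 29.2 CPM in HH, and 111, 114, 98.8 and 102 CPM in TLOm1. The lowest AZA dose thus had a level close to that of the highest. The difference was 1.62 ± 0.31 (SE) on the log2 scale (edgeR adjusted p = 0.0410). This call was not firm, since it held in 13 of 25 alternatives, and leaving out the PF382 library at 250 nM gave an adjusted p of 0.108.

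CBLN3 had 0.305, 1.14, 0.849 and 0.917 CPM in PF382 over the AZA series, and its difference was 1.98 ± 0.43 (SE) on the log2 scale (edgeR adjusted p = 0.0626). AKR1C1 had 0.567, 1.80, 1.57 and 1.91 CPM, with a difference of 1.67 ± 0.44 (edgeR adjusted p = 0.141). For both genes all treated PF382 libraries were above the untreated library of the set. With the untreated libraries of both sets in the fit, the adjusted p was 0.0206 for CBLN3 and 0.0176 for AKR1C1, but one of those libraries had been used to choose the genes.

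RIPK2 had 0.655, 0.666, 0.849 and 0.678 CPM in PF382 over the AZA series, from 15, 17, 20 and 17 counts. The gain seen with decitabine was thus not seen against this untreated library, where the pooled ratio was 1.11. Against the untreated PF382 library of the decitabine set, which took part in the choice, the pooled AZA ratio was 2.79. The RIPK2 difference between lines was 0.33 ± 0.33 (SE) on the log2 scale (edgeR adjusted p = 0.860). MGAT4B had 34.7, 47.3, 46.3 and 46.3 CPM in PF382, 129, 144, 147 and 164 CPM in HH, and 67.6, 67.0, 72.9 and 91.4 CPM in TLOm1. Treated libraries of every line were thus among the higher ones, and the difference was 0.17 ± 0.15 (SE; edgeR adjusted p = 0.770).

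ARHGAP9 had 50.3, 51.7, 49.2 and 55.6 CPM in PF382 over the AZA series. HH had 0.0411, 0.247, 0.523 and 0.605 CPM, from 1, 4, 17 and 15 counts, a ratio of 11.9 with a 95% exact counting interval of 2.01 to 483. TLOm1 had 8.86, 5.14, 6.32 and 6.36 CPM. The order of the 3 responses, up in HH, level in PF382 and down in TLOm1, was that of the decitabine set, but no single AZA effect on the gene passed the test. The edgeR adjusted p was 0.117 in HH and 0.113 in TLOm1. It was 0.0263 in HH without the 50 nM library and 0.0241 with both untreated libraries in the fit. In TLOm1 it was 0.000243 with the untreated library of the other set and 0.00514 with both. In both lines the other untreated library belongs to the decitabine set and had been used to choose the genes.

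Taken by line, the AZA effect in PF382 itself passed for the same DOC2GP, VAMP8 and SLC25A24. The log2 fold changes were 2.54 ± 0.40, 2.27 ± 0.31 and 1.65 ± 0.27 (SE), with edgeR adjusted p values of 0.00460, 0.00217 and 0.00673, and each passed in all 25 alternatives. In the table, 67 genes (0.399%) were called higher in PF382, and the median over all genes was 0.03. In HH no gene of the table was called by edgeR (1948 at an unadjusted p under 0.05, 280 by DESeq2 and 7 by limma voom). In TLOm1 203 genes (1.21%) were called and none of the 8 was.

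**Figure D3:**
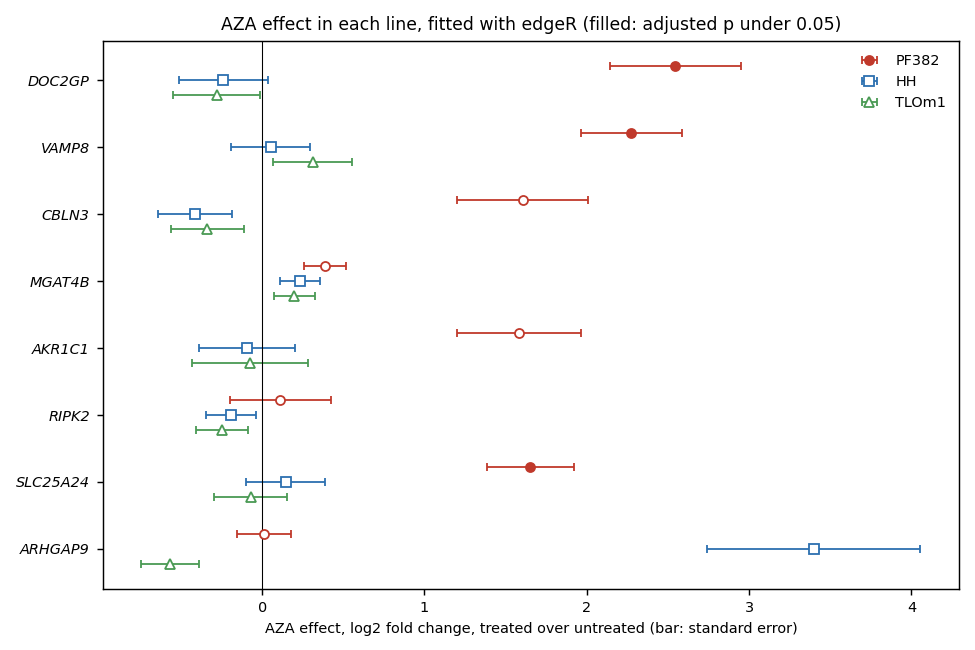
Fitted AZA effect (log2 fold change, treated over untreated library of the set) in each line, with bars for the standard error and filled symbols for an edgeR adjusted p under 0.05. PF382 lies at 2.54 for DOC2GP, 2.27 for VAMP8 and 1.65 for SLC25A24, the filled symbols, and HH lies at 3.40 for ARHGAP9 with the widest bar.

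Over the 12 libraries of the AZA set, all 8 genes differed in level between PF382 and the mean of HH and TLOm1, as did 76.2% of all genes, so that this says little of the 8. The difference ran from -5.18 on the log2 scale for RIPK2 and -3.86 for CBLN3 to -0.85 for SLC25A24 and -0.72 for AKR1C1, with ARHGAP9 at 5.06.

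The dose was examined within the treated libraries, which leaves out the untreated ones. The decitabine slopes share the treated libraries with the choice of the genes and are no independent evidence of a response. Per doubling of the decitabine dose in PF382, SLC25A24 rose by 0.42 ± 0.06 (SE) on the log2 scale (edgeR adjusted p = 4.12e-06) and VAMP8 by 0.39 ± 0.10 (edgeR adjusted p = 0.00687), where 10.7% of all genes were called higher. VAMP8 had the same level at 12.5 and 25 nM, and without the 5 nM library its slope was -0.059. SLC25A24 kept a slope of 0.39 without that library (adjusted p = 0.147). The other 6 genes did not pass, with slopes between -0.05 for ARHGAP9 and 0.28 for DOC2GP.

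With AZA none of the 8 had a called slope in PF382, where 9.67% of all genes did (edgeR, 0 of 8 at an unadjusted p under 0.05). The slopes lay between -0.18 for CBLN3 and 0.11 for SLC25A24. In TLOm1, where 23.4% of genes had a called AZA slope, MGAT4B rose by 0.20 ± 0.05 (SE) per doubling (edgeR adjusted p = 0.00248) and CBLN3 fell by 0.29 ± 0.11 (edgeR adjusted p = 0.0462). In HH, where 13.9% were called, RIPK2 fell by 0.21 ± 0.06 (edgeR adjusted p = 0.0218).

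**Figure D4:**
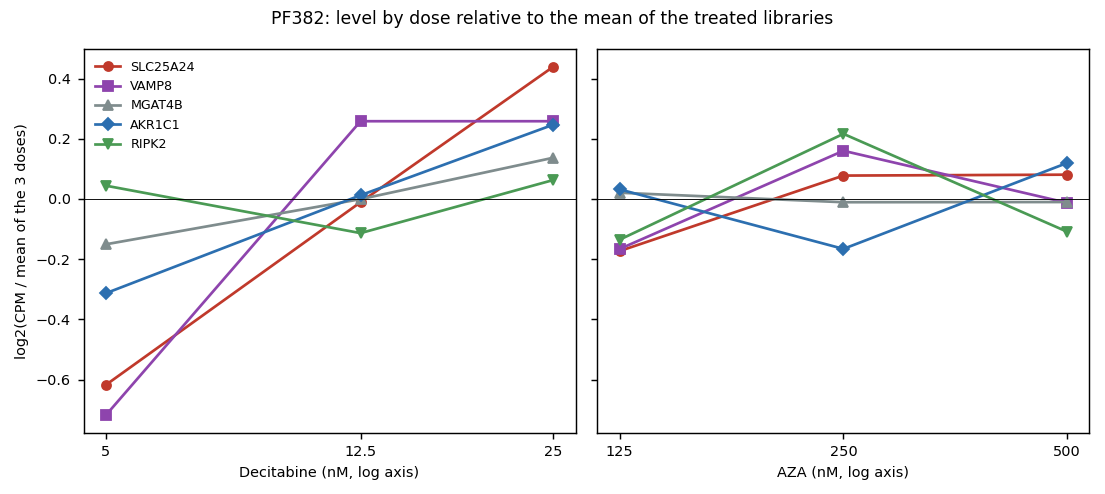
Level of 5 of the genes in treated PF382 by dose (log axis, nM), as log2 of the CPM over the mean of the 3 treated libraries, 1 library a point, with decitabine at left and AZA at right. SLC25A24 climbs at each decitabine dose, to 89.6 CPM at 25 nM, VAMP8 stands at 19.9 CPM at both 12.5 and 25 nM, and with AZA the points of these 5 genes together span a narrower range, SLC25A24 reaching 49.0 CPM at 500 nM.

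Genes of the pathways of the 8 were read from lists. Those of vesicle fusion, cerebellin, N-glycan, AKR1 and NRF2, NOD and RIPK, and mitochondrial carrier genes, drawn up with the 8 known and without them, had no member called by edgeR in the decitabine difference between lines (smallest adjusted p = 0.315) or in the AZA effect in PF382 (smallest adjusted p = 0.0575). With 0.00595% and 0.94% of all genes called in these tests, nothing is read from the absence of calls in lists of this size. For the AZA difference between PF382 and the other lines, 1 of 33 vesicle fusion genes and 1 of 21 N-glycan genes passed, where 0.309% of all genes did. VAMP5, a SNARE of the same family that lies next to VAMP8, went the other way at -2.06 ± 0.40 (SE) on the log2 scale (edgeR adjusted p = 0.0416). VAMP5 had a treated mean of 8.63 ± 0.98 CPM in PF382 (SD, n = 3 doses), against 10.6 CPM untreated, whereas after AZA it had 3.84 ± 1.14 CPM in HH, against 1.07 CPM untreated, and 9.63 ± 0.97 CPM in TLOm1, against 3.25 CPM untreated. B4GALT3, a galactosyltransferase, had a difference of 0.66 ± 0.13 (edgeR adjusted p = 0.0442). VAMP5 and B4GALT3 each passed in part of the alternatives only, 13 and 11 of 25.

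The dose slopes of these lists in PF382 were mixed. With decitabine, 3 of 33 vesicle fusion genes rose, 1 of 30 AKR1 and NRF2 genes rose and 3 fell, 3 of 34 NOD and RIPK genes rose and 2 fell, and 4 of 18 mitochondrial carriers fell, where 10.7% of all genes were called higher and 6.84% lower. The AKR1 and NRF2 gene that rose was AKR1C3, by 0.40 ± 0.07 (SE) on the log2 scale per doubling (edgeR adjusted p = 0.000196). No cerebellin or N-glycan gene was called. Of 14 DNA methylation genes 2 rose and 2 fell, and of 14 genes for uptake and activation of cytidine analogs 1 rose and 3 fell.

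Neighbours on the chromosome, that is overlapping genes and the nearest protein-coding genes, were read in the same fit. None of those tested passed the threshold in PF382 with either drug. Decitabine effects in PF382 were between -0.34 and 0.55 on the log2 scale for the neighbours named next. These were NDUFV1 and NUDT8 beside DOC2GP on chromosome 11, and GGCX and VAMP5 beside VAMP8 on chromosome 2. Further ones were KHNYN and SDR39U1 at CBLN3 on chromosome 14, and SQSTM1 and C5orf45 at MGAT4B on chromosome 5. OSGIN2 beside RIPK2 on chromosome 8, VAV3 beside SLC25A24 on chromosome 1, and MARS, GLI1 and DDIT3 at ARHGAP9 on chromosome 12 completed them. MMP16, also beside RIPK2, had a fitted effect of exactly 0, which is not read as an unchanged level. The other tested neighbours had larger fitted values. LTC4S beside MGAT4B had 1.97 with decitabine (edgeR adjusted p = 0.425), AKR1C2 beside AKR1C1 had 1.52 (edgeR adjusted p = 0.409) and NYNRIN beside CBLN3 had 2.53 (edgeR adjusted p = 0.178). AKR1E2, a reductase gene on the other side of AKR1C1 on chromosome 10, had 7.53 with decitabine (edgeR adjusted p = 0.223) and 5.04 with AZA (edgeR adjusted p = 0.169), against untreated PF382 libraries with 0 and 1 counts, so that the fitted sizes are not bounds.

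Across the 24 libraries, with log2(CPM + 1) centred on the mean of each line, some genes followed the 8 closely among 11290 genes with a mean of at least 5 CPM. These correlations are a description, since the libraries share lines, sets and doses. They include the libraries that chose the 8, so likeness among the 8 follows in part from the choice. Most of the closest genes changed when values were centred on each line within set, as given below. ANXA2, a membrane-binding annexin, was closest to VAMP8 (Pearson r = 0.95), followed by TP53I3 (0.93). TARP (0.94) and the kinase TBK1 (0.92) were closest to SLC25A24, and SMARCA1 (0.90) and XPNPEP2 (0.89) to AKR1C1. TSPAN17 (0.92) and STK11IP (0.91) were closest to MGAT4B, and TCIRG1 (0.87) and EFCAB4A (0.87) to DOC2GP. For RIPK2 these were SRGN (0.86) and DSE (0.84), for CBLN3 MGST3 (0.84) and MIR497HG (0.82), and for ARHGAP9 H6PD (0.79) and NBPF10 (0.77). Among the 8 themselves, AKR1C1 and SLC25A24 (0.86) and VAMP8 and SLC25A24 (0.85) were the most alike pairs, and ARHGAP9 had no r above 0.12 with any other.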

How the data were processed

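The deposited values are raw read counts per gene for 25559 genes in each of 24 libraries, made by the authors and not normalized. The build GRCh37.p2 and the tools STAR, DESeq2 and limma stand in the submitters' processing notes with neither role nor version. Which counter and annotation were used is not given in the sources used here. According to the labels the input was both poly-A RNA and total RNA depleted of ribosomal RNA, prepared with a strand-marking kit, and this was not settled. Samples were grouped by the cell line and treatment labels, and the sets by the prefix of the titles.

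In R 4.3.3, edgeR 4.0.16 was run on the counts (TMM normalization, robust dispersion, quasi-likelihood F test). The fit used all 24 libraries, 6 blocks (line within set) and an effect for each line and drug. The filter of edgeR's filterByExpr, at a count of 10 and a total of 15, left 16809 genes, and p values were adjusted by Benjamini-Hochberg over them, with a threshold of 0.05. Slopes on log2 dose were fitted to the 18 treated libraries. Standard errors are the log2 fold change divided by the root of F. The pipeline was tested on simulated data. CPM are counts scaled to a common library total, and a pooled level is the summed count of the 3 doses over their summed totals. Alternatives were the size factors of DESeq2 1.42.0, its test, limma 3.58.1 voom, no filter, the libraries of 1 drug alone, other untreated libraries, and each treated library left out in turn.

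The 8 genes, the pathway lists and the tests were chosen with earlier results of these data known. The genes named are the 8, list genes called in a difference between lines, the 2 genes most correlated with each of the 8, and paralogs and neighbours by the RefSeq annotation of GRCh38.p14, used for names only. AKR1C3 is a paralog, and SYT1, SYT11, SLC29A1 and the further genes under other observations were named after their values were seen. 1 further pathway list is not reported here.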

Additional observations from a re-analysis of the deposited data

Results flagged for a closer look

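The AZA effect differed between PF382 and the mean of HH and TLOm1 by a test of the difference itself for 3 of the 8 genes. The difference was 2.81 on the log2 scale for DOC2GP, 2.09 for VAMP8 and 1.62 for SLC25A24, and all 3 treated PF382 libraries of the set were above the untreated one for each gene. HH had lower AZA doses than PF382 and TLOm1, so line and dose are mixed in its part of the test. No group holds more than 1 library, so no library could be checked against replicates of its group.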

How the results depend on the processing

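No paired analysis was possible because each condition has 1 library and the labels carry no replicate numbers. For the decitabine difference between lines edgeR called 1 gene, against 2 without a filter, 128 with DESeq2, 0 with voom, 0 with 1 drug alone, 356 with the untreated library of the other set and 55 with both, and 0 to 74 when a treated library was left out, the 74 without PF382 at 5 nM decitabine. For the AZA difference of PF382 it called 52, against 260 with DESeq2, 23 with voom, 10 with 1 drug alone, 341 with the other untreated library and 158 with both (11 without PF382 at 250 nM AZA to 89 without PF382 at 5 nM decitabine). For AZA in PF382 it called 158, against 440, 281, 42, 3232 and 738 in that order (60 without PF382 at 250 nM to 232 without 125 nM). For AZA in HH it called 0, against 280, 7, 3, 3617 and 1107 (0 to 258, 258 being without HH at 50 nM). For AZA in TLOm1 it called 203, against 943 with DESeq2, 92 with 1 drug alone, 2699 with the other untreated library and 1787 with both (20 without TLOm1 at 250 nM to 1194 without 125 nM). The decitabine slope in PF382 gave 2953, against 1776 with DESeq2 (240 without 25 nM, 242 without 5 nM, to 3496), and the AZA slope 1626, against 936 (26 without 500 nM, 373 without 125 nM, to 2049). The level difference gave 12812 (12308 to 12857).

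Directions turned only where an effect had missed the threshold, except for the VAMP8 slope. Over the fits that left out a treated library, the decitabine slope in PF382 ran between -0.059 (without 5 nM) and 0.72 for VAMP8, -0.21 and 0.53 for CBLN3, and -0.13 and 0.12 for RIPK2. The AZA slope ran between -0.30 and 0.063 for DOC2GP, -0.22 and 0.33 for VAMP8, -0.41 and 0.067 for CBLN3, -0.19 and 0.24 for AKR1C1, -0.37 and 0.36 for RIPK2, -0.041 and 0.26 for SLC25A24, and -0.066 and 0.13 for ARHGAP9, the ends being the fits without the 125 or the 500 nM library. The RIPK2 slope was 0.0011 with DESeq2 size factors, 0.0011 with DESeq2 and 0.00052 with AZA libraries alone. The AZA effect in PF382 ran between -0.011 and 0.18 for RIPK2 and between -0.021 and 0.043 for ARHGAP9. The AZA difference of ARHGAP9 was 0.28 with the untreated libraries of the other set. The cause was not tested. Centred on each line within set, 2 of the 16 most correlated genes were the same.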

Other observations

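Several genes of the pathway lists had called slopes with both drugs in PF382. Per doubling of decitabine and of AZA, on the log2 scale, TKT fell by 0.23 and 0.24, NME1 by 0.25 and 0.29, and RRM1 by 0.14 and 0.15, whereas RBCK1 had -0.26 and 0.50 and DNMT3B 0.32 and -0.26. SYT11 and SLC29A1 are described further, and like these 5 genes were picked after their values were seen. SYT11, a synaptotagmin of vesicle trafficking, rose by 1.41 ± 0.12 (SE) on the log2 scale per doubling of decitabine (edgeR adjusted p = 9.81e-10) and by 0.87 ± 0.10 per doubling of AZA (edgeR adjusted p = 7.70e-07). Its treated mean in PF382 was 4.79 CPM with decitabine, against 0.326 CPM untreated, whereas untreated HH had 258 CPM and untreated TLOm1 334 CPM in that set. SLC29A1, the nucleoside transporter ENT1, fell by 0.44 ± 0.04 (SE) per doubling of decitabine (edgeR adjusted p = 1.44e-08) and by 0.33 ± 0.05 per doubling of AZA (edgeR adjusted p = 2.50e-05). Without the 500 nM library the AZA slopes of both genes missed the threshold.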
